A study of Mus musculus with 6 samples.

Results

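The cathepsins are the main proteases of the lysosome, and 10 of their genes were followed in mouse colon. Ctsa, Ctsb, Ctsc, Ctsd, Ctse, Ctsh, Ctsk, Ctsl, Ctss and Ctsz were taken by symbol from the 24421 gene rows of each sample. All 10 were found and all 10 passed the filter on low values, which 12348 genes passed. RNA of whole colon tissue had been sequenced in 3 control samples and in 3 samples of chronic colitis brought on with dextran sulfate sodium (DSS), a polymer toxic to the lining of the colon. All 6 carry the strain label C57BL/6, have 7 weeks entered under age and have no genetic change listed. The dose and length of DSS exposure were not known. The series asks whether a histone acetylation mark takes part in intestinal inflammation, and only expression was analysed here. Whether replicates were different mice is not labelled, and p-values here then speak only of the spread among 3 samples a group, some of which may be technical.

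Most cathepsins are made as inactive proenzymes, carried to the lysosome by mannose 6-phosphate receptors and activated there at acid pH. Cathepsins B, C, H, K, L, S and Z are cysteine proteases, D and E are aspartic proteases, and A is a serine carboxypeptidase. Cystatins and stefins hold the cysteine cathepsins in check where these leave the lysosome. In the gut they are known from macrophages and other antigen-presenting cells, where cathepsin S trims the invariant chain of MHC class II, and from epithelium and stroma.

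Expression is given as FPKM (fragment counts corrected for transcript length and library size) as the authors deposited it. The FPKM sum of a sample ranged from 609544 to 678076, and read totals are unknown, so no counting interval is given. On the first principal component of all tested genes DSS 1 scored -18.98 against -51.17 and -47.53 in DSS 2 and DSS 3 and between 38.1 and 39.9 in the controls, so it lay nearer the controls than the other DSS samples did. All 13 listed markers of colonic epithelium passed the filter, and the stomach genes Tff1, Gkn1 and Gkn2 were listed at 0 in every sample. Of 8 pancreatic acinar genes, Amy2a5 (16.5 FPKM), Cela2a (9.32 FPKM), Prss2 (7.07 FPKM), Pnlip (3.88 FPKM) and Cpa1 (2.71 FPKM) were found in DSS 1 and listed at 0 in the other 5 samples. Ctrb1 (15.3 FPKM) and Cpb1 (3.30 FPKM) were also highest in DSS 1, at most 0.107 and 0.479 FPKM elsewhere, while Cela1 was present in every sample and lower in each DSS sample. All 12 tested neutrophil markers rose, with a summed level of 4136 to 7031 FPKM with DSS, against 8.30 to 32.3 FPKM in the controls. Apart from S100a8 and S100a9, these markers passed the filter only through the DSS samples. Their count is thus in part fixed by the filter. Over all tested genes 6.34% were called higher. Genes were tested with limma on log2(FPKM + 1), with Benjamini-Hochberg adjustment over all 12348 tested genes and a threshold of 0.05. Unless marked SE, a value that follows ± is the SD of 3 samples. In bulk tissue, fewer cells of a type and less RNA per cell cannot be told apart.

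In control colon the cathepsins spanned a wide range of levels. Ctss was the highest at 482.5 ± 19.8 FPKM, rank 218 among all gene rows. It was followed by Ctsd at 209 ± 34.4 FPKM, Ctsl at 147 ± 8.58 FPKM, Ctsb at 130 ± 7.64 FPKM and Ctsz at 113 ± 11.6 FPKM. Ctsh stood at 75.7 ± 7.97 FPKM, Ctsa at 58.2 ± 8.83 FPKM, Ctsc at 39.9 ± 4.0 FPKM and Ctse at 35.3 ± 3.00 FPKM. Ctsk, at 7.84 ± 1.23 FPKM and rank 6313, was the lowest of the family. The ranges of neighbours in this order did not overlap, except those of Ctsc and Ctse. Ctsl and Ctsb were close, with the lowest Ctsl value at 140.2 FPKM and the highest Ctsb value at 138 FPKM. In GRCm38 (GENCODE vM21) the genes other than Ctsk and Ctss lie at chr1:131638306-131675505 (Ctse), chr2:164832873-164841032 (Ctsa), chr2:174427493-174439039 (Ctsz), chr7:88278085-88310888 (Ctsc), chr7:142375911-142388038 (Ctsd), chr9:90054152-90076089 (Ctsh), chr13:64359337-64370890 (Ctsl) and chr14:63122462-63145923 (Ctsb).

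**Figure D1:**
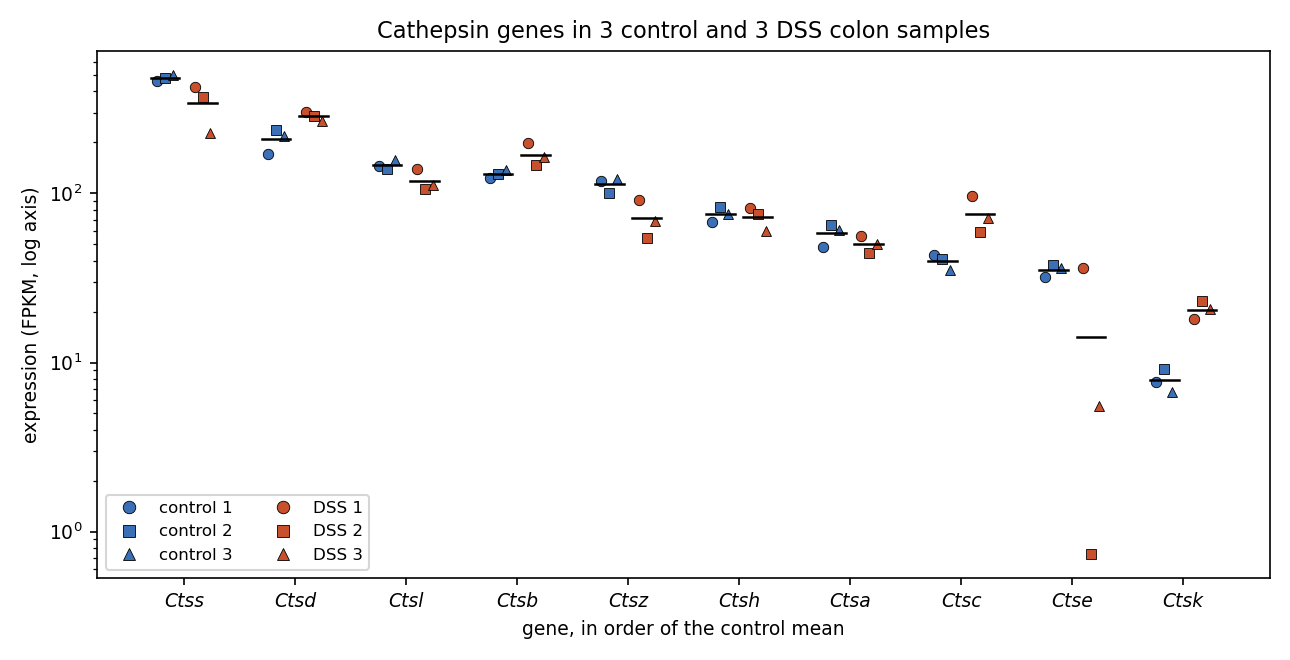
FPKM (log axis) of each cathepsin gene in each sample, ordered by control mean, with control samples in blue, DSS samples in red, symbols for the sample number and a line at each group mean. The Ctsk and Ctsc points of DSS colon lie above those of control colon, and Ctse lies at 0.740 FPKM in DSS 2 and at 36.2 FPKM, among the controls, in DSS 1.

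Ctsk and Ctsc were the cathepsin genes that rose in DSS colon, and no cathepsin gene fell by the test. Thus 2 of 10 were called higher, where 6.34% of all tested genes were, and 0 of 10 were called lower, where 2.56% were (limma). In either direction 8.9% of all tested genes were called. At an unadjusted limma p under 0.05, 4 cathepsins were higher and 2 were lower. By the samples themselves, 4 cathepsin genes (Ctsb, Ctsc, Ctsd and Ctsk) had every DSS sample above every control, as had 25.6% of all tested genes. Another 3 (Ctsl, Ctss and Ctsz) had every DSS sample below every control, as had 9.51% of all tested genes. In either direction the groups were apart for 35.1% of all tested genes. The median log2 fold change of the 10 genes was -0.14, and that of all tested genes was 0.13. After median-of-ratios scaling, which sets the latter to 0.00, 3 cathepsins (Ctsb, Ctsc and Ctsk) had all DSS samples above control and 5 (Ctsa, Ctse, Ctsl, Ctss and Ctsz) had them below. With that scaling 33.7% of all tested genes had their groups apart in either direction, 4.28% were called higher and 4.15% were called lower, and among the cathepsins Ctsk was called higher and Ctsz lower. All tested genes split into 783 higher and 316 lower, and into 529 higher and 513 lower after median-of-ratios scaling, so directions of small size depend on the scaling.

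**Figure D2:**
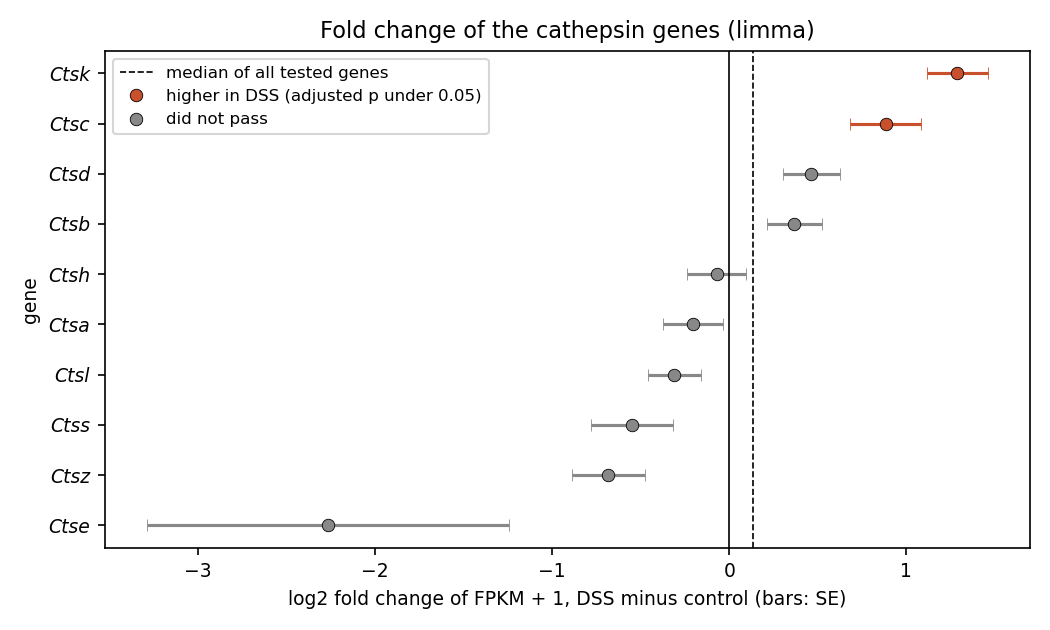
Log2 fold change of FPKM + 1 (DSS minus control, points) with its SE (bars) for each cathepsin gene, the dashed line being the median of all tested genes at 0.13. Ctsk at 1.29 and Ctsc at 0.88, in red, passed the test, while Ctse has the widest bar, with an SE of 1.02.

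Cathepsin K is a collagen-cleaving protease best known from osteoclasts and also made by fibroblasts and macrophages. Ctsk had 17.98, 22.97 and 20.7 FPKM in DSS 1, 2 and 3, against 7.66, 9.15 and 6.71 FPKM in control 1, 2 and 3. The lowest DSS sample was thus well above the highest control. Ctsk rose by a log2 fold change of 1.29 ± 0.17 SE (limma, adjusted p = 0.00575), a ratio of group means of 2.62. It passed under every alternative tried, with adjusted p from 0.00194 to 0.0361. Less the median of all tested genes, its log2 fold change was 1.15. Ctsk was also the 1 cathepsin whose lowest DSS value was in DSS 1 and highest in DSS 2. The summed level of fibroblast markers overlapped between the groups, at 655 to 1104 FPKM with DSS, against 633 to 775 FPKM in the controls. Pdgfra and Pdpn had every DSS sample above every control, and Cd34 and Dpt had every DSS sample below. Of 10 such markers Pdpn was called higher and Cd34 lower, and leaving out DSS 3 or any 1 control ended both calls (up to 0.158 and 0.11). Pdpn also lost its call under all 3 scalings, without the filter and with a filter at 0.1 FPKM, and Cd34 without the filter. Their part in the Ctsk values was not tested. Of 8 tested osteoclast-type and matrix-degrading genes Mmp9 and Mmp13 were called higher and 0 lower (0 lower also at an unadjusted limma p under 0.05). Of all tested genes 6.34% were called higher and 2.56% lower. Mmp9 was also on the neutrophil list and passed the filter only through the DSS samples, so the count called higher is in part fixed by the filter. Mmp13, a collagenase gene, was no longer called without DSS 1, DSS 3 or any 1 control (up to 0.143) and in 3 other settings. Calcr, the calcitonin receptor gene, was listed at 0 in every sample, and Acp5, tartrate-resistant acid phosphatase, had 307, 240 and 250 FPKM with DSS, against 184, 257 and 241 FPKM in the controls (adjusted p = 0.436).

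Cathepsin C, or dipeptidyl peptidase I, trims the proforms of granule serine proteases of neutrophils, mast cells and cytotoxic lymphocytes. Ctsc had 96.2, 59.3 and 71.3 FPKM in DSS 1, 2 and 3, against 43.1, 41.03 and 35.4 FPKM in the controls. Every DSS sample was above every control, DSS 1 most and DSS 2 least. Its log2 fold change was 0.88 ± 0.20 SE (limma, adjusted p = 0.0376). Ctsc lost the call without DSS 3 (0.114), control 1 (0.0873), control 2 (0.117) or control 3 (0.142), with the adjusted p of each fit in parentheses. It also lost it under all 3 scalings (0.0567 to 0.0618) and without the filter (0.0671). Each fit without 1 sample had 5 samples left.

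Among 12 granule protease genes that cathepsin C is known to act on, 3 reached the level for testing and Gzma and Gzmb rose. Both passed the filter only through the DSS samples, and 6.34% of all tested genes were called higher. Cma1, the other tested gene and a mast cell marker, overlapped between the groups and was not called (limma, log2 fold change -1.05, adjusted p = 0.201). It had 2.73, 1.03 and 1.23 FPKM with DSS, against 10.05, 2.22 and 3.23 FPKM in the controls. Gzma, a granzyme of cytotoxic lymphocytes, had 22.04, 117 and 21.5 FPKM with DSS, against 1.81, 0.391 and 0.917 FPKM in the controls (limma, adjusted p = 0.0137). DSS 2 held by far the most Gzma while it held the least Ctsc of the DSS samples. Leaving out control 2 (0.0663) or control 3 (0.0674) ended the call. Gzmb had 3.65, 23.0 and 9.04 FPKM with DSS, against 1.199, 0.635 and 0.608 FPKM in the controls (adjusted p = 0.0357, and up to 0.129 without DSS 3 or any 1 control, where the call was lost, as in 2 other settings). Of the neutrophil protease genes on the list, none reached the level for testing. Prtn3 had 0.761, 1.21 and 1.46 FPKM with DSS, against 0.0428, 0.0864 and 0.395 FPKM in the controls, every DSS sample being above every control. Elane stayed at or below 0.125 FPKM in every sample. Ctsg, which encodes the serine protease cathepsin G of neutrophils, was listed at 0 in DSS 1 and in the controls and had 0.150 and 0.337 FPKM in DSS 2 and DSS 3. Gzmc, another granzyme gene below the level for testing, had 0.624, 0.506 and 0.353 FPKM with DSS and 0.0584 FPKM in control 3, and was listed at 0 in control 1 and control 2. Gzma and Gzmb were also on the list of T and NK cell markers, of which all 5 tested genes were called higher (with Cd3d, Cd3g and Nkg7, median log2 fold change 2.26). All but Cd3g passed the filter only through the DSS samples, so this count and median are in part fixed by it. Over all tested genes 6.34% were called higher and the median was 0.13. Of the markers below the level for testing, Cd8a was above control in every DSS sample. Cd3e, Cd4, Ncr1 and Klrb1c overlapped between the groups. The summed T and NK markers had 49.3, 184 and 49.3 FPKM in DSS 1, 2 and 3, against 5.84 to 8.03 FPKM in the controls, highest in DSS 2 as were Gzma and Gzmb. Leaving out control 2 ended the calls of Cd3d, Cd3g (0.0511) and Nkg7 (0.0508), and leaving out any 1 control that of Cd3d (up to 0.0845). Without any 1 DSS sample Cd3d and Nkg7 did not pass the filter and were not tested. The part of these markers in the Gzma, Gzmb and Ctsc values was not tested.

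Cathepsin S stays active at neutral pH, and its gene is the neighbour of Ctsk. Ctss had 426, 369 and 227 FPKM in DSS 1, 2 and 3, against 463, 481.5 and 503 FPKM in control 1, 2 and 3. All DSS samples were below the controls, DSS 1 by little and DSS 3 by most. The log2 fold change of Ctss was -0.55 ± 0.23 SE and did not pass (limma, adjusted p = 0.175). Ctss passed in 1 alternative, with estimated sample weights (adjusted p = 0.029, 0.029 to 0.356 over all alternatives). In GRCm38 Ctsk lies on chromosome 3 from 95499256 to 95509362 and Ctss from 95526786 to 95556403, both on the forward strand, with 17423 bases and no annotated gene between them. Neither has an exon shared with another annotated gene. The ratio of Ctsk to Ctss FPKM within a sample, which no scaling can change, was 0.0422, 0.0622 and 0.0914 in DSS 1, 2 and 3 and 0.0165, 0.0190 and 0.0133 in the controls. It was 3.85 times higher in DSS by the mean of log2 ratios (p = 0.1 in a two-sided exact permutation test, which cannot go lower with 3 samples against 3).

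The promoter windows of 4 cathepsin genes are shown because the results turn on these genes and because the neighbours Ctsk and Ctss can be read against each other. The windows run from 250 bases before to 50 bases after the RefSeq start, 5′ to 3′ on the gene's strand, in build GRCm38.p6. They lie at chr3:95498960-95499259 (forward strand, Ctsk), chr3:95526536-95526835 (forward, Ctss), chr7:88277835-88278134 (forward, Ctsc) and chr7:142387778-142388077 (reverse, Ctsd). Capitals mark matches on either strand to CACGTG (the E-box core bound by the lysosomal regulators TFEB and TFE3), GAGGAA (a core of sites for the myeloid factor PU.1) or the ISRE core, which is GAAA, any 2 bases and GAAA (interferon-stimulated response elements).
Ctsk: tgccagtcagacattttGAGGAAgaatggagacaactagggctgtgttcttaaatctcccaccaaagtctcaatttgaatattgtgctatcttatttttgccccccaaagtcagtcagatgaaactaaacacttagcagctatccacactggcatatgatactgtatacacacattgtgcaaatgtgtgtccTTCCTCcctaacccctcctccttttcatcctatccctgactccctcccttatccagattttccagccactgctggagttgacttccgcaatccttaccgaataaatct
Ctss: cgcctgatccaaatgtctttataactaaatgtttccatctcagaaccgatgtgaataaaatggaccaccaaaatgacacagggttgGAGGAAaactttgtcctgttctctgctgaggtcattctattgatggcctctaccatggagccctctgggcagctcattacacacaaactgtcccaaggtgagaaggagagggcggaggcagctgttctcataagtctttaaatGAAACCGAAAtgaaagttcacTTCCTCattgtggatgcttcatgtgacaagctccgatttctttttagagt
Ctsc: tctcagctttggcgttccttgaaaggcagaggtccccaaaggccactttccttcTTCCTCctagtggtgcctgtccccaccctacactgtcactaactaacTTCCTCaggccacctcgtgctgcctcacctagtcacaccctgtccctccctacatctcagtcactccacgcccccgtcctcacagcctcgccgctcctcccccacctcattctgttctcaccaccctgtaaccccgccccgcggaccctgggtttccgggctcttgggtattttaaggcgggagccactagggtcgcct
Ctsd: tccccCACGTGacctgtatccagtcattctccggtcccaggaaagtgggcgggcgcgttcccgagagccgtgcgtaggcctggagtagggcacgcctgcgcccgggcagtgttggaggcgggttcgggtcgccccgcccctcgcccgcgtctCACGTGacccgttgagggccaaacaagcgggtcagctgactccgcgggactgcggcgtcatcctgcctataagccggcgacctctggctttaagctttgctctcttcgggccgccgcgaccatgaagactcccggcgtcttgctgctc

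RefSeq windows were matched for 7 of the 10 genes, with Ctsb, Ctse and Ctsh unmatched, and Ctsa has 2. CACGTG stood in the windows of Ctsd (2 matches), Ctsl (1) and 1 of the Ctsa windows (2), as in 7.15% of all 32851 windows. GAGGAA stood 2 times each in the windows of Ctsk, Ctss and Ctsc, as at least once in 28.3% of all windows. Ctsk and Ctsc, which rose, thus share this core with Ctss, which was not called in either direction. The ISRE core stood once in the Ctss window, as in 3.44% of all windows. The AP-1 site TGANTCA, found in 7.81% of all windows, was in no cathepsin window. The searched motifs overlapped nowhere in these windows. Base composition differed, with 43.7% G and C in the Ctsk window, 44.0% in Ctss, 60.3% in Ctsc and 67.3% in Ctsd. These are matches of letters, chosen for lysosomal, myeloid and interferon regulators, and not measured binding.

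The lysosomal endopeptidases cathepsin D and cathepsin B were higher in each DSS sample without passing the test. Ctsd, the main aspartic protease of lysosomes, had 304, 287 and 267 FPKM with DSS, against 171, 237 and 219 FPKM in the controls. The log2 fold change was 0.46 ± 0.16 SE (limma, adjusted p = 0.116). Ctsb, which also removes dipeptides from protein ends, had 198, 147 and 163 FPKM with DSS, against 123, 130 and 138 FPKM in the controls. Its log2 fold change was 0.37 ± 0.15 SE (adjusted p = 0.168). Neither gene passed in any alternative, and after median-of-ratios scaling their log2 fold changes were 0.31 and 0.21. With that scaling the groups were no longer apart for Ctsd. Exons of Ctsb overlap those of Fdft1, a squalene synthase gene on the other strand, with 38.98 ± 13.1 FPKM with DSS, against 36.4 ± 17.9 FPKM in the controls. Exons of Ctsd overlap those of Gm49369, an annotated protein-coding gene on the same strand, so strand could not separate their reads. Strand was not recorded, so reads in overlaps with the other strand cannot be told apart either.

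Ctsz and Ctsl were lower in each DSS sample without passing the test. Ctsz, a carboxypeptidase also called cathepsin X, had 91.3, 54.6 and 68.9 FPKM with DSS, against 118, 100.3 and 122 FPKM in the controls. Each DSS sample was below each control, and the log2 fold change was -0.68 ± 0.20 SE (limma, adjusted p = 0.0818). Ctsz passed without DSS 1 (0.0216), with upper-quartile (0.0473) and median-of-ratios scaling (0.044) and with estimated sample weights (0.0229), and its adjusted p ran from 0.0216 to 0.231 over all alternatives. Its exons overlap those of Nelfcd on the other strand, which had 12.95 ± 1.99 FPKM with DSS, against 12.8 ± 0.305 FPKM in the controls. Ctsl, an endopeptidase of lysosomes, had 139, 107 and 112 FPKM with DSS, against 144, 140.2 and 157 FPKM in the controls. In DSS 1 it lay just under the lowest control. The log2 fold change of Ctsl was -0.31 ± 0.15 SE (adjusted p = 0.221) and passed in no alternative. Exons of Ctsl overlap those of the annotated genes Gm47123 and Gm49230.

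Cathepsin E separated DSS 1 from the other DSS samples. This aspartic protease, found in endosomes of epithelial and immune cells rather than in lysosomes, had 36.2, 0.740 and 5.54 FPKM in DSS 1, 2 and 3, against 31.9, 37.5 and 36.4 FPKM in the controls. In the FPKM as deposited DSS 1 was within the control range, and DSS 2 and DSS 3 were far below it. After median-of-ratios scaling DSS 1 also lay below every control. The log2 fold change of Ctse was -2.27 ± 1.02 SE (limma, adjusted p = 0.206), and without DSS 1 it was -3.42 (adjusted p = 0.0111, 0.0111 to 0.389 over all alternatives). Summed B and plasma cell markers stood at 2767, 609 and 203 FPKM in DSS 1, 2 and 3, against 612 to 864 FPKM in the controls. Of 13 colonic epithelial markers 5 were called lower (Krt8, Krt19, Car4, Aqp8 and Slc26a3) and 0 higher (limma, 0 higher also at an unadjusted p under 0.05), with a median log2 fold change of -0.66. For 7 of them all DSS samples were below all controls and for 0 above, against 9.51% and 25.6% of all tested genes. Of all tested genes 2.56% were called lower and 6.34% higher, with a median log2 fold change of 0.13. Car4, Aqp8 and Slc26a3 passed under every alternative, whereas leaving out DSS 2, DSS 3 or any 1 control ended the calls of Krt8 (up to 0.0904) and Krt19 (up to 0.136, lost in 4 other settings too). Their summed level overlapped, at 8901, 15600.0 and 12430.0 FPKM with DSS and between 15170.0 and 21040.0 FPKM in the controls, and Car1 alone held 1397, 9924 and 5679 FPKM of it in DSS 1, 2 and 3, against 3688, 2860.0 and 2402 FPKM in the controls. The part of these B cell, plasma cell and epithelial markers, and of the pancreatic genes seen in DSS 1, in the Ctse values was not tested.

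Ctsh and Ctsa overlapped between the groups in the FPKM as deposited, while after median-of-ratios scaling Ctsa had all DSS samples below control. Ctsh, an aminopeptidase, had 82.2, 75.4 and 59.7 FPKM with DSS, against 67.6, 83.6 and 75.98 FPKM in the controls (log2 fold change -0.07 ± 0.17 SE, limma adjusted p = 0.819). Ctsa, which protects beta-galactosidase and neuraminidase in a lysosomal complex, had 56.2, 44.2 and 50.1 FPKM with DSS, against 48.3, 65.3 and 60.8 FPKM in the controls (log2 fold change -0.20 ± 0.17 SE, adjusted p = 0.468). Its partners in that complex did not pass. Glb1, the beta-galactosidase gene, had 25.4, 24.3 and 24.2 FPKM with DSS, against 24.1, 27.1 and 26.1 FPKM in the controls (adjusted p = 0.798). Neu1, the neuraminidase gene, had 32.7, 96.5 and 46.2 FPKM with DSS, against 51.6, 70.4 and 81.2 FPKM in the controls (adjusted p = 0.618), with DSS 2 above every control and the other DSS samples below. Exons of Ctsa overlap those of Neurl2 and of Pltp on the other strand. Pltp, a phospholipid transfer protein gene, had 4.05 ± 0.518 FPKM with DSS, against 9.71 ± 1.51 FPKM in the controls (adjusted p = 0.0139, lost without control 1 at 0.0559 or control 2 at 0.0743).

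The 10 genes together had 1447, 1168 and 1044 FPKM in DSS 1, 2 and 3, against 1217, 1326 and 1354 FPKM in the controls, so the sums overlapped. Ctss supplied 29.4%, 31.6% and 21.7% of the sum in DSS 1, 2 and 3 and between 36.3% and 38.04% in control colon. Ctsd supplied 21.0%, 24.6% and 25.6% in DSS and between 14.0% and 17.9% in control colon. In DSS 3 Ctsd was the highest cathepsin gene, and in the other 5 samples Ctss was. The ratio of Ctsd to Ctss, the highest pair in every sample, was 0.713, 0.779 and 1.18 in DSS and 0.368, 0.493 and 0.436 in control colon (2.02 times higher, p = 0.1 in a two-sided exact permutation test). Ctsk remained a small part, at 1.24% to 1.98% in DSS and 0.495% to 0.690% in control colon. Of the DSS samples DSS 1 had the highest value for 9 of the 10 genes, as it had for 39.1% of all tested genes, the exception being Ctsk.

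**Figure D3:**
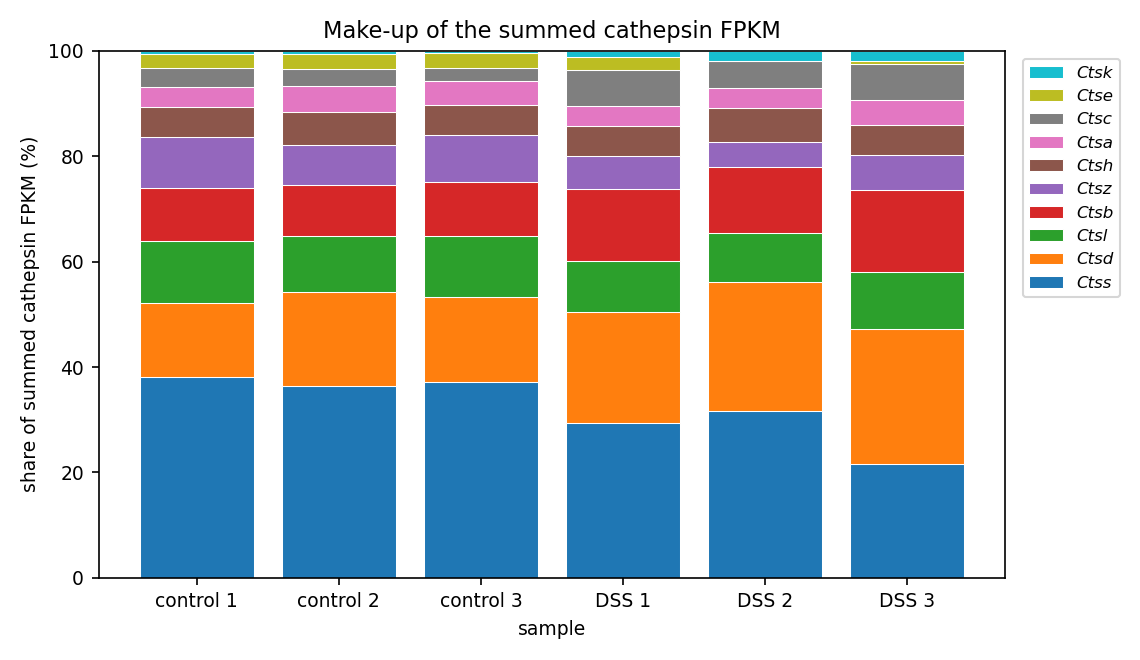
Share (%) of each cathepsin gene in the summed FPKM of the 10 genes, in stacked bars, 1 bar per sample. The Ctss share at the foot is smaller, and the Ctsd share above it larger, in each DSS sample than in each control, with Ctss from 36.3% to 38.04% in control colon and from 21.7% to 31.6% in DSS.

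Of 17 tested macrophage and monocyte markers, Itgam, Fcgr1, Cd14 and Msr1 were called higher and 0 lower (0 lower at an unadjusted limma p under 0.05). Over all tested genes 6.34% were called higher and 2.56% lower. Csf1r, Cd68 and Cd163 went the other way without passing, with log2 fold changes of -0.57, -0.33 and -0.30. The call of Itgam was lost when control 2 or control 3 was left out (up to 0.0691), and that of Fcgr1 when DSS 3 or any 1 control was (up to 0.11) or no filter was used (0.0503). The median log2 fold change of the list was 0.41, against 0.13 over all tested genes. The summed markers had 1063, 809 and 810 FPKM in DSS 1, 2 and 3, against 712, 603 and 577 FPKM in the controls, and none was listed at 0 in every sample. Lyz2, which has a near-identical copy in Lyz1, supplied 549, 402 and 409 FPKM of these sums in DSS 1, 2 and 3, against 358, 307 and 293 FPKM in the controls. Ctss was lower in every DSS sample than in every control. The part of these markers in the Ctsk, Ctsc and Ctss values was not tested. The tested genes whose values over the 6 samples were most like those of Ctsk, the cathepsin with the smallest p, were Eif4e3, Cd33, Casp12, Lcp2 and Msr1. Likeness was the root mean square difference of log2(FPKM + 1) centred on each gene's mean, from 0.0915 for Eif4e3 to 0.124 for Msr1. Of these, Cd33 (0.0535) and Casp12 (0.0547) were not called higher without control 3. Since Ctsk was picked for its difference between groups, genes like it share that difference. Among the other cathepsins Ctsc was nearest, at rank 706 of 12327 genes, and Ctse the farthest, at rank 12268.

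The asparaginyl endopeptidase gene Lgmn, whose product legumain processes several cathepsins to their 2-chain forms, rose. Lgmn had 133, 210.05 and 150.2 FPKM in DSS 1, 2 and 3, against 57.0, 54.2 and 52.5 FPKM in the controls. Every DSS sample held more than 2 times the highest control. The log2 fold change was 1.55 ± 0.19 SE (limma, adjusted p = 0.00399, up to 0.0312 over all alternatives, passing in each). It was the 1 gene to pass among 9 genes of processing and partner proteins (1 higher, 0 lower, 0 lower also at an unadjusted limma p under 0.05, median log2 fold change 0.17 against 0.13 over all tested genes). Of all tested genes 6.34% were called higher and 2.56% lower. Psap, the saposin precursor gene, had 255, 215 and 231 FPKM with DSS, against 183, 192 and 191 FPKM in the controls (adjusted p = 0.177).

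Inhibitor genes changed in both directions. Of 10 tested cystatin and stefin genes 7 rose and Csta1 fell, and because Stfa2, Stfa2l1 and Stfa3 were listed at 0 in every control no median is given. All 7 that rose were below 1 FPKM in every control and passed the filter only through the DSS samples. Their count is thus in part fixed by the filter. Over all tested genes 6.34% were called higher and 2.56% lower. Cst3, the gene of the secreted inhibitor cystatin C, had 499.9, 498.9 and 396 FPKM with DSS, against 488, 599 and 578 FPKM in the controls (limma, adjusted p = 0.322). Cstb, the gene of the cytosolic inhibitor stefin B, had 324, 297 and 278 FPKM with DSS, against 221, 207 and 198 FPKM in the controls. All DSS samples exceeded the controls, and the test was just missed (log2 fold change 0.52 ± 0.13 SE, adjusted p = 0.0522, 0.0197 to 0.193 over all alternatives, passing with estimated sample weights). Csta1 had 7.77, 7.00 and 4.08 FPKM with DSS, against 13.4, 14.05 and 11.05 FPKM in the controls (adjusted p = 0.0473, lost without DSS 2, DSS 3 or any 1 control at up to 0.151 and in 4 other settings). Cst7, the gene of cystatin F, which inhibits cathepsin C in granules, had 1.19, 1.45 and 1.48 FPKM with DSS, against 0.514, 0.570 and 0.485 FPKM in the controls. Its log2 fold change on the log2(FPKM + 1) scale was 0.64 ± 0.15 SE (adjusted p = 0.0449, lost without any 1 control at up to 0.162 and in 6 other settings). Without any 1 DSS sample Cst7 did not pass the filter and was not tested.

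Stefin genes made up 5 of the 7 rises in that list (Stfa1, Stfa2, Stfa2l1, Stfa3 and BC100530). BC100530 had 30.2, 73.2 and 109.9 FPKM in DSS 1, 2 and 3, against 0.286, 0.7998 and 0.194 FPKM in the controls, and Stfa1 had 18.1, 42.4 and 46.7 FPKM and 0.159, 0.187 and 0.3998 FPKM. DSS 1 was the lowest DSS sample for both, and all DSS samples were far above the controls. Stfa1, Stfa2, Stfa2l1 and BC100530 have near-identical copies among annotated transcripts, so the split of reads between them is uncertain. Kng2, a kininogen gene with a near-identical copy in Kng1, had 1.17, 2.19 and 1.88 FPKM with DSS, against 0.245, 0 and 0.0613 FPKM in the controls (limma, adjusted p = 0.0109, lost without control 2 at 0.067 or control 3 at 0.0594 and at a pseudocount of 0.01). Without any 1 DSS sample Kng2 and the 5 stefin genes did not pass the filter and were not tested.

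**Figure D4:**
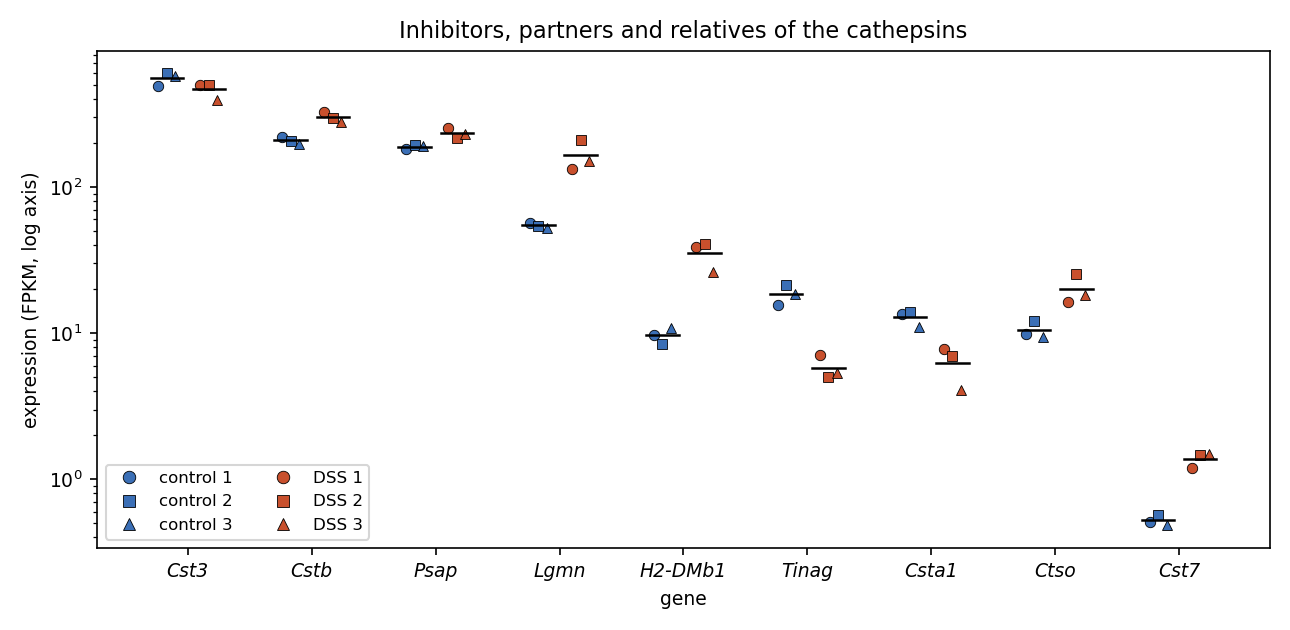
FPKM (log axis) of 9 inhibitors, partners and relatives of the cathepsins in each sample, with control samples in blue, DSS samples in red, symbols for the sample number and a line at each group mean. Lgmn lies between 133 and 210.05 FPKM with DSS and between 52.5 and 57.0 FPKM in the controls, while the Cst3 points of the groups overlap.

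Of 15 other cathepsin genes and relatives 8 were listed at 0 in every sample, all of them from the rodent group expressed in placenta. Ctso, a widely expressed cysteine cathepsin, had 16.2, 25.4 and 18.2 FPKM with DSS, against 9.80, 12.2 and 9.39 FPKM in the controls. It rose by a log2 fold change of 0.86 ± 0.20 SE (limma, adjusted p = 0.0435), and the call was lost without DSS 2, DSS 3 or any 1 control (0.0765 to 0.156) and in 4 other settings. Ctsf, another cysteine cathepsin, had 4.68, 8.54 and 5.33 FPKM with DSS, against 9.58, 12.5 and 9.21 FPKM in the controls (adjusted p = 0.107, passing without DSS 2 at 0.0428 and with estimated sample weights at 0.0323). Ctsw, of cytotoxic lymphocytes, did not reach the level for testing, with 0.740, 2.11 and 1.10 FPKM with DSS, against 0.337, 0.342 and 0.375 FPKM in the controls. Tinag, a cathepsin B-like protein of basement membranes with no protease activity, had 7.06, 5.001 and 5.36 FPKM with DSS, against 15.7, 21.3 and 18.5 FPKM in the controls. It fell by 1.52 on the log2 scale (SE 0.19, adjusted p = 0.00406, up to 0.031 over all alternatives, passing in each).

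Genes of the wider lysosome mostly did not pass. None of 16 sorting genes, among them the mannose 6-phosphate receptors, was called (limma, 2 higher and 1 lower at an unadjusted p under 0.05), with a median log2 fold change of 0.11. Of 9 regulators of lysosomal genes none was called (1 higher and 0 lower at an unadjusted limma p under 0.05, median log2 fold change -0.01). Gpnmb, lost without DSS 3 or any 1 control and with the replicate block, was called higher among 30 other hydrolases and lysosomal proteins (median 0.03). Of 31 genes of the lysosomal membrane and its proton pump, 12 had every DSS sample above every control, against 25.6% of all tested genes. Another 3 had every DSS sample below, against 9.51% of all tested genes. At an unadjusted limma p under 0.05, 10 of the 31 were higher and 3 lower. After adjustment Laptm5, Ostm1 and Atp6v1g1 were called higher and Slc36a1 lower (median 0.21). Each of these 4 lost the call without DSS 3 (0.0539 to 0.108) and in some other fits without 1 sample, and Atp6v1g1 also with the replicate block and in 2 of the 3 scalings (upper-quartile, median-of-ratios). Over all tested genes the median was 0.13, beside which these 4 medians stand, and 6.34% were called higher and 2.56% lower.

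In the MHC class II path, where cathepsin S trims the invariant chain, H2-DMa and H2-DMb1 were called higher among 10 genes and 0 lower (0 lower at an unadjusted limma p under 0.05, median log2 fold change 0.19). Of all tested genes 6.34% were called higher and 2.56% lower, with a median of 0.13. H2-DMa, which shares exonic bases with Brd2 on the other strand, lost the call without any 1 sample other than DSS 1 (up to 0.115) and in 2 other settings. Cd74, the invariant chain gene, had 401, 234 and 169 FPKM with DSS, against 145, 117 and 183 FPKM in the controls (adjusted p = 0.168), highest in DSS 1 and within the control range in DSS 3. H2-DMb1, with a near-identical copy in H2-DMb2, had 38.7, 40.6 and 26.3 FPKM with DSS, against 9.70, 8.38 and 10.8 FPKM in the controls (adjusted p = 0.00312). Of 9 collagen, elastin and other matrix genes, substrates of cathepsins K, L and S, none was called (limma, 1 higher and 0 lower at an unadjusted p under 0.05), with a median log2 fold change of 0.52. Col1a2 had 85.8, 40.7 and 117 FPKM with DSS, against 36.5, 36.6 and 33.5 FPKM in the controls (adjusted p = 0.111). DSS 2, the sample with the most Ctsk, had the least Col1a2 of the DSS samples.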

How the data were processed

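RNA of mouse colon was measured in 3 DSS and 3 control samples, with groups and numbers from the sample titles. The values are FPKM as deposited, per the file headers. The submitters' processing notes list TopHat2 2.1.1 and mm10, while program and annotation behind FPKM were not stated. A non-directional module is named in the labels' protocols, so strand was taken as not recorded. Ratios of low values between samples did not cluster (any 0.02 log2 bin held 1.55% of the genes or less), so whole reads were not recovered and depth is unknown. Gapdh, which every cell uses, is listed at 0, 21.4 and 36.1 FPKM in DSS 1, 2 and 3. In control 1, 2 and 3 it is listed at 2.00, 0.117 and 0.145 FPKM. Atp6v0c, a proton pump gene, had 145, 0.681 and 135 FPKM with DSS, against 0.976, 2.51 and 156 FPKM in the controls. A value of 0, or a low value such as that of Ctse in DSS 2, may thus mean that estimation failed.

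The test took genes that reached 1 FPKM in 3 or more samples. It used limma 3.58.1 (R 4.3.3, two-sided, with trended and robust variance moderation) on log2(FPKM + 1), a scale that understates changes of low genes. Tested on simulated data with the spread of this comparison (12348 genes, 200 of them changed), it found 44.5% of changes of 2-fold and 86% of those of 4-fold, with 4.39% false among its calls. The changed genes were drawn from those above a set control level, so these rates do not cover low genes such as Cst7. They were also a smaller share of the genes than the 8.9% called in the data. Positions come from GENCODE vM21, and copies from BLAST+ 2.17.0 (95% identity over 200 bases). Promoter windows come from RefSeq. Python 3.11.15 with matplotlib 3.10.9 made the figures.

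The members and lists were chosen with earlier results of these data known. Named genes are the members, of each list up to 4 genes that passed with the smallest p and those behind a count of 5 or fewer, and the 5 genes most like Ctsk. Pltp, Fdft1 and Nelfcd were added as overlapping genes, and Cd74, Cst3, Cstb, Glb1, Neu1, Col1a2, Acp5, Calcr, Psap, Tnfsf11, Ctsf, Ctsw, Ctsg, Elane, Prtn3, Gzmc, Car1 and the pancreatic genes for their known roles, after values were seen. Lyz2, Csf1r, Cd68, Cd163 and the T and NK markers below the level for testing were added to show more of their lists, after values were seen. Alternatives covered scaling, pseudocount, filter, moderation, sample weights, the replicate block and each sample left out. A result for another gene of the lysosomal lists is not reported here.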

Additional observations from a re-analysis of the deposited data

How the results depend on the processing

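Ctsk was called higher under all 16 alternatives. The count of cathepsins called higher, 2 in the analysis above, was 1 under upper-quartile, median-of-ratios and same-sum scaling and without the filter, and 1 to 2 without 1 sample. The count called lower, 0 above, was 1 with median-of-ratios or upper-quartile scaling (Ctsz), 2 with estimated sample weights (Ctss and Ctsz) and 0 to 2 without 1 sample (Ctse and Ctsz without DSS 1). Over all genes, 783 higher and 316 lower became 1839 and 769 with estimated sample weights, 529 and 513 under median-of-ratios scaling, 544 and 467 under upper-quartile scaling, and ran from 191 to 972 and from 58 to 584 without 1 sample. The cause was not tested, beyond fewer samples in the fits without 1. The log2 fold change of Ctsh, -0.07 above, ran from -0.1673 to 0.0602 without 1 sample, turned to 0.0602 without DSS 3 and to 0.0017 without control 2, and never passed. The difference in summed cathepsin FPKM, -79.2, ran from -193 to 8.49 without 1 sample. For 55 named genes, 710 of 850 values kept direction and side of the threshold, 129 lost and 9 gained the call. Cst7, Stfa1, Stfa2, Stfa2l1, Stfa3, BC100530, Kng2, Mmp9, Cd3d and Nkg7 had values in 13 of the 16 alternatives. Without any 1 DSS sample they did not pass the filter, so whether their calls hold there is unknown.

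Same-numbered samples deviated together weakly (correlations 0.082, 0.129 and 0.003), and not each correlated best with its own number, so the numbers were not taken as pairs. With the replicate block 640 genes were higher and 255 lower, and the same 2 cathepsins (Ctsc and Ctsk) were called higher and 0 lower. Depth is unknown and limits low genes such as Cst7 and Ctsw in a way that could not be measured.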

Other observations

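The ratio of Ctsb to Ctsl, lysosomal endopeptidase genes of similar level, was singled out after its values were seen. It was 1.43, 1.38 and 1.46 in DSS 1, 2 and 3 and 0.850, 0.929 and 0.881 in the controls, so Ctsb exceeded Ctsl in every DSS sample and Ctsl exceeded Ctsb in every control. The ratio of Ctsc to Ctsz was 1.05, 1.09 and 1.03 in DSS and 0.366, 0.409 and 0.290 in control colon, also singled out after its values were seen. Both ratios varied little within DSS colon, where DSS 1 stood apart for Ctse. Tnfsf11, the gene of the osteoclast-inducing cytokine RANKL, had 6.35, 1.64 and 1.17 FPKM with DSS, against 0.349, 0.427 and 0.492 FPKM in the controls (limma, adjusted p = 0.109), highest in DSS 1, where Ctsk was the lowest of the DSS samples. Slc36a1, a lysosomal amino acid transporter gene, had 7.76, 4.58 and 4.74 FPKM with DSS, against 17.8, 16.2 and 36.3 FPKM in the controls (limma, adjusted p = 0.0192, lost without DSS 2, DSS 3, control 1 or control 2 at up to 0.0834).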
